A study of Mus musculus with 2 samples.

Results

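The genes described here are 9 genes of mouse chromosome 3 that lie on either side of Tet2. They are Enpep, Bdh2, Slc9b2, Manba, Emcn, Dapp1, Mttp, Adh7 and Adh1. They were picked by name out of the 23365 genes of the authors' deposited table, because they lay near Tet2 and their levels were unequal in the 2 conditions. The unequal levels therefore chose them, and their ratios are given as a description with no test. The RNA came from mouse embryonic fibroblasts, cells grown from the connective tissue of embryos, and was sequenced. There were 2 genotypes with 1 library each, wild type and a knock-out of both TET1 and TET2, and the labels give no other allele, strain, age or treatment. The labels also leave out how the alleles were made and whether the cells came from 1 embryo or several.

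The conditions are called A and B in the authors' deposited table, and the sources used here do not say which of them is the knock-out. All ratios are B over A, with no genotype given to either. The level of a gene is its mean normalized count, the authors' mean over A and B of read counts divided by library size factors, because the values of each condition are not used here. No error can be given for a ratio, since each condition is 1 library, and a p-value of the authors sets 1 library against another, not the genotypes. Of all genes, 12401 had a mean of at least 50, the minimum used for counts below. A gene met the 2-fold limit when its log2 ratio was 1 or more, or -1 or less. A gene passed the authors' threshold when its adjusted p in their deposited table was under 0.1, a limit set here. The labelled cell type was checked with 15 fibroblast markers. All 15 had a mean of at least 50, led by the matrix gene Fn1 at 550534 in the authors' deposited table. Of the 15, 7 met the 2-fold limit as higher in B and 0 as lower, against 8.31% and 9.60% of all genes. Adjusted p was under 0.1 for 5 markers. By the authors' deposited table their B over A folds were Dcn 50.5, Fap 18.4, Lum 9.81, Thy1 7.35 and Pdgfra 5.80. The 2 libraries thus differed in several markers of the labelled cell type. Whether this has a part in the ratios below was not tested.

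TET enzymes oxidize 5-methylcytosine, a step in the removal of methyl marks from DNA. When a gene is disrupted in embryonic stem cells of one mouse strain and the mice are crossed to another, DNA beside the disrupted gene is inherited with it and can stay that of the first strain. Genes in such a stretch can then carry other variants than the control cells, whatever the disrupted gene does. The authors' deposited table holds no sequence variants, so the strain origin of this stretch and its part in the values below were not tested.

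The 9 genes have unlike promoters, and those of the 5 genes with the largest ratios are shown here with that of Mttp, which has the smallest. Each run covers 250 bases before to 50 bases after the gene's start, 300 in all, from RefSeq on GRCm38.p6, a build other than the mm9 of the files. The runs read 5′ to 3′ on the gene's own strand, and capitals mark CpG, the pair of bases that carries most DNA methylation.
Adh1 (chr3:138277335-138277634, + strand): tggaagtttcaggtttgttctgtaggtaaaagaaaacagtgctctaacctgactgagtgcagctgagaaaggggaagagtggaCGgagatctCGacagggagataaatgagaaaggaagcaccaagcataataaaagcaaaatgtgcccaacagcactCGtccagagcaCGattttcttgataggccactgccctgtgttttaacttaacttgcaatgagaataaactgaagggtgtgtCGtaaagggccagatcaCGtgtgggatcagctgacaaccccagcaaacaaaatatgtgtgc
Adh7 (chr3:138217523-138217822, + strand): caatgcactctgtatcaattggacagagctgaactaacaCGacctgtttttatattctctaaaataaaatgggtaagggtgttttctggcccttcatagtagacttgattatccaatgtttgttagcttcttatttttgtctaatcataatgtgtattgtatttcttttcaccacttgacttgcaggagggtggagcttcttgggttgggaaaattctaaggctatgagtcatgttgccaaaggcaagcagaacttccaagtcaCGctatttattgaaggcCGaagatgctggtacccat
Emcn (chr3:137340828-137341127, + strand): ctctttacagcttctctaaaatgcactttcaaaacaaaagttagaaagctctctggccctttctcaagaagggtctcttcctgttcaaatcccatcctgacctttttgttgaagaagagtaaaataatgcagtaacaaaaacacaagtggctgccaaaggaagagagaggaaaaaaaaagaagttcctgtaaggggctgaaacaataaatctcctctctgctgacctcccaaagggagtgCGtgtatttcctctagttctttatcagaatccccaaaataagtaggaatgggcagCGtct
Slc9b2 (chr3:135307450-135307749, + strand): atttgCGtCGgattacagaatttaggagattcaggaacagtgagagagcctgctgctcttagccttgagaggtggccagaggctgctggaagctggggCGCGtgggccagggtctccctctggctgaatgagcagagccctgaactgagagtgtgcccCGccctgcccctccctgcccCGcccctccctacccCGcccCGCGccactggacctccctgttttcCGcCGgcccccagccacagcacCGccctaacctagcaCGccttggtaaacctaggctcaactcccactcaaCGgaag
Enpep (chr3:129332700-129332999, - strand): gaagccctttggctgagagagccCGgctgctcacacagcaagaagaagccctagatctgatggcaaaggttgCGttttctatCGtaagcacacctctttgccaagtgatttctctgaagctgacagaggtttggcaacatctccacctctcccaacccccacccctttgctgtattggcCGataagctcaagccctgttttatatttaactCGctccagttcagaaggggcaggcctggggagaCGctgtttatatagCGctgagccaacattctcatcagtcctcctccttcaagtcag
Mttp (chr3:138143369-138143668, - strand): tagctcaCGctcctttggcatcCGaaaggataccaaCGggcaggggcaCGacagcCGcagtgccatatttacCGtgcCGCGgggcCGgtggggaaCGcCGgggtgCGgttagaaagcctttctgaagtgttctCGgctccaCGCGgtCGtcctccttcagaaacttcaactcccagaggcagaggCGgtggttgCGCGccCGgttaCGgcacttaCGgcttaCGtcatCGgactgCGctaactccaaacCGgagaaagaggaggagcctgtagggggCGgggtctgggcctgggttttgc

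A promoter was found in RefSeq for all 9 genes. The median over 32851 promoters was 7 CpGs, with quartiles of 3 and 20. Of the genes higher in B, Emcn had 2 CpGs, Adh7 had 3, Adh1 had 6 and Mttp had 27. Of those lower in B, Bdh2 and Dapp1 had 6 each, Enpep had 7, Slc9b2 had 14 and Manba had 23. Both directions thus held promoters below and above the median. The promoter of Tet2 itself had 57 CpGs, more than 99.8% of all promoters. The motif TATAAA, searched on both strands like the motifs below, was present in 2 of the 9, Enpep and Adh7, and in 13.6% of all promoters. CCAAT was present in 3 of the 9 against 37.4% of all, and GGGCGG in 4 of the 9 against 35.7% of all. None of these 3 motifs contains another, and a match is a description of the letters only.

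In gene order, 1 of the 9 genes lay before Tet2 and 8 lay after it. Enpep was 31 genes before Tet2, counting genes present in the authors' deposited table, and Adh1, the farthest on the other side, was 32 genes after. The nearest was Bdh2, 6 genes after Tet2, and Slc9b2 came next to it. Manba followed at 12 genes, Emcn at 19, Dapp1 at 25, Mttp at 27 and Adh7 at 30. The genes directly beside Tet2 were not among the 9. Ppa2, on one side, lay at -0.12 (log2 ratio) in the authors' deposited table, and Cxxc4, on the other, at 2.11. Tet2 itself was 1.67-fold lower in B by the authors' deposited table (adjusted p = 1), which did not meet the 2-fold limit.

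All 9 genes had a mean of at least 50 and all 9 met the 2-fold limit, 4 higher and 5 lower in B. Of all 12401 genes 17.9% met it, 8.31% higher and 9.60% lower in B, and nothing is read from the count of the 9 because unequal levels chose them. The authors' threshold was passed by 5 of the 9, 3 of them higher and 2 lower in B, where 3.20% of all genes passed, 1.98% higher and 1.22% lower. The log2 ratios nearest to 0 among the 9 were those of Mttp and Bdh2, 1.05 and -1.07 in the authors' deposited table. Just outside this range, Gstcd, 4 genes before Tet2, lay at -0.99 in the authors' deposited table and was not chosen. Nor were some near genes that met the limit: Dkk2, 9 genes before Tet2, Cxxc4, 1 gene after, and Cenpe, 5 genes after. Each of the 9 had a mean below the median of the 12401 genes. A large ratio at such a mean leaves few counts in the condition with less. This holds above all for Emcn, Adh1 and Slc9b2, so the size of their folds is poorly fixed. Among the 6146 genes with a mean of 50 to 2000, a range set after the means were seen, 27.7% met the 2-fold limit and 4.33% passed the authors' threshold.

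**Figure D1:**
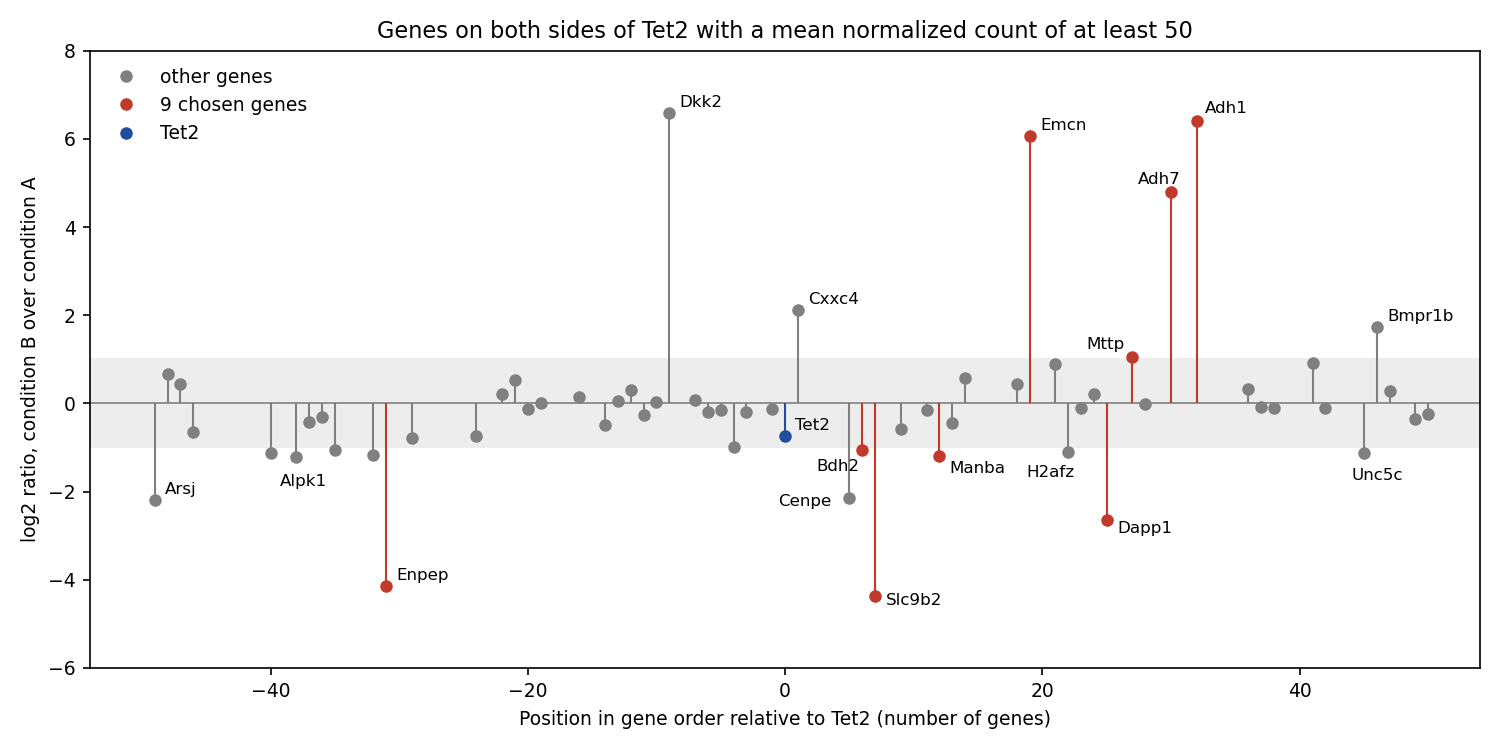
Log2 ratio of B over A (vertical axis) for genes with a mean normalized count of 50 or more, by position in gene order from Tet2 (horizontal axis, number of genes). Red points are the 9 chosen genes, blue is Tet2, grey are the other genes, and the grey band holds log2 ratios under 1 in size. Adh1, at 6.40, and Slc9b2, at -4.38, are the extremes of the 9, and Dkk2, at 6.58, is the highest of the others.

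Adh1 and Adh7 encode class I and class IV alcohol dehydrogenases, enzymes that oxidize alcohols, retinol among them. Adh1 had a mean normalized count of 324 and was 84.4-fold higher in B by the authors' deposited table (adjusted p = 2.84e-05). Of the 12401 genes, 38 had a log2 ratio larger in size than that of Adh1. Adh7 had a mean of 368 and was 27.7-fold higher in B by the authors' deposited table (adjusted p = 0.000695). The pair is separated in gene order by 0610031O16Rik, which is listed at 0 and overlaps Adh7 on the opposite strand in GENCODE M21. The next genes of the cluster did not share these values. Adh6a and Adh4 are listed at 0 in both A and B of the authors' deposited table. Adh5, which encodes the widely expressed class III enzyme, lay at a log2 ratio of 0.33 with a mean of 6581 in the authors' deposited table. Reads could be split between such related genes, and the sources used here do not give how the counting treated them.

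Retinol is the source of retinoic acid, and 21 other genes of alcohol and retinol metabolism were in the authors' deposited table. Of the 16 with a mean of at least 50, 6 were higher and 3 lower in B by 2-fold or more. Over all genes these shares were 8.31% and 9.60%, and among genes with a mean of 50 to 2000 27.7% met the limit either way. The median of the 16 log2 ratios was 0.38 against -0.04 over all genes. The authors' threshold was passed by 1 in each direction, against 1.98% higher and 1.22% lower over all genes. Aldh1a2, which makes retinoic acid, had a mean of 105 and lay at 4.93 (log2 ratio) by the authors' deposited table. It did not pass the authors' threshold, and such a ratio at this mean leaves few counts in A. Cyp26b1, which breaks retinoic acid down, was 23.1-fold lower in B by the authors' deposited table (adjusted p = 2.00e-06). Crabp1, a retinoic acid binding protein named after its value was seen, was 18.9-fold higher in B by the authors' deposited table (adjusted p = 4.03e-06).

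Emcn encodes endomucin, a sialomucin of the endothelial surface. Its mean normalized count of 96.3 was the lowest of the 9, and it was 66.7-fold higher in B by the authors' deposited table (adjusted p = 0.0638). So large a fold at this mean leaves very few counts in A. Of 16 other endothelial markers, 3 are listed at 0 and 6 had a mean of at least 50. Of these 6, 3 were higher and 2 lower in B by 2-fold or more, against 17.9% of all genes either way. The authors' threshold was passed by 1 as higher and 2 as lower in B, against 3.20% of all genes either way. Defining markers were low, with means of 9.80 for Pecam1 and 8.43 for Cdh5, and Cldn5 is listed at 0 in the authors' deposited table. Kdr and Flt1, receptors for vascular endothelial growth factor, lay at 2.78 and 2.17 and Tek at 1.21 (log2 ratios) in the authors' deposited table. The endothelial factor gene Erg lay at -5.62 with a mean of 106 in the authors' deposited table. A ratio of that size at this mean leaves few counts in B. The TGF-beta co-receptor gene Eng lay at -2.19 in the authors' deposited table. The summed mean of the 16 markers was 4390, to which Flt1 gave 1678 and Eng 1640 in the authors' deposited table. Their sum in each condition was not used, so the part of endothelial cells in the value of Emcn was not tested. In bulk RNA, fewer cells of a type and less RNA per cell cannot be told apart.

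Mttp encodes the large subunit of the microsomal triglyceride transfer protein, which loads lipid onto apolipoprotein B in liver and gut. It had a mean normalized count of 605 and was 2.07-fold higher in B by the authors' deposited table (adjusted p = 1). In GENCODE M21, Mttp overlaps Trmt10a on the opposite strand, and the library kit does not mark strand, so reads in the overlap cannot be told apart. Trmt10a lay at a log2 ratio of -0.01 with a mean of 1464 in the authors' deposited table. Lipoprotein assembly had 10 other genes with a mean of at least 50, and the median of the 10 log2 ratios was 0.03. Of these, 2 were higher and 0 lower in B by 2-fold or more, against 17.9% of all genes either way. Those 2 were the lipase gene Lpl, at 3.65, and Apoe, at 1.54, in the authors' deposited table. Dgat2, which makes triglyceride, lay at -0.87 and Apob, the protein that Mttp loads, at -0.82 in the authors' deposited table. Of 12 hepatocyte and enterocyte markers measured, 6 are listed at 0, and Apob was the only one with a mean of at least 50.

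Among the genes lower in B, Slc9b2 had the largest ratio in size. It encodes a sodium-proton exchanger of the NHA type. Its mean normalized count was 115 and it was 20.8-fold lower in B by the authors' deposited table, without passing the authors' threshold (adjusted p = 0.167). Its paralogue and next neighbour Slc9b1 is listed at 0 in B, with a mean of 1.90 in the authors' deposited table, so no fold is given. There were 8 other sodium-proton exchanger and regulator genes with a mean of at least 50, and none passed the authors' threshold. Of the 8, 1 was higher and 1 lower in B by 2-fold or more, against 17.9% of all genes either way. The median of the 8 log2 ratios was 0.23. The gene lower was Slc9a7, at -3.89 with a mean of 116 in the authors' deposited table. The one higher was the regulator Slc9a3r2, at 1.49 in the authors' deposited table. Slc9a9, an exchanger of endosomes, lay at 0.89 in the authors' deposited table.

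Enpep encodes glutamyl aminopeptidase, a membrane enzyme that cleaves angiotensin II. Its mean normalized count was 691 and it was 17.7-fold lower in B by the authors' deposited table (adjusted p = 0.000349). It is the one chosen gene before Tet2. The next gene after it with a mean of at least 50, Elovl6, lay at -0.78 (log2 ratio) in the authors' deposited table. Angiotensin peptide metabolism had 13 other genes with a mean of at least 50, and the median of the 13 log2 ratios was -0.22. Of these, 2 were higher and 1 lower in B by 2-fold or more, against 17.9% of all genes either way. The gene lower was Mme, which encodes the peptidase neprilysin, 9.91-fold lower in B by the authors' deposited table (adjusted p = 0.000648). The angiotensin receptor genes Agtr2 and Agtr1a gave log2 values of 3.10 and 1.47 by the authors' deposited table, and Agtr2 passed (adjusted p = 0.0690).

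Dapp1 encodes an adaptor that binds phosphoinositides downstream of the B cell receptor. Its mean normalized count was 694 and it was 6.27-fold lower in B by the authors' deposited table (adjusted p = 0.0589). The nearest genes before it with a mean of at least 50 were Lamtor3 at 0.21 and Dnajb14 at -0.10 (log2 ratios) in the authors' deposited table. B cell receptor signalling had 7 other genes with a mean of at least 50. Of these, 1 was higher and 3 lower in B by 2-fold or more, against 17.9% of all genes either way. The median of the 7 log2 ratios was 0.08, and none passed the authors' threshold. The kinase genes Lyn and Syk lay at 1.53 and -1.39, and the phospholipase gene Plcg2 at -1.08, in the authors' deposited table. The leukocyte marker Ptprc had a mean of 3.53 in the authors' deposited table. Of 13 blood cell markers, 5 are listed at 0 and 4 had a mean of at least 50. Of these 4, 2 were higher and 1 lower in B by 2-fold or more, against the same 17.9% of all genes.

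Manba encodes lysosomal beta-mannosidase, which takes the last mannose off the sugar chains of glycoproteins. It had the highest mean of the 9, a mean normalized count of 1708, and was 2.29-fold lower in B by the authors' deposited table (adjusted p = 1). The other 20 lysosomal and related glycosidase genes all had a mean of at least 50, and the median of their log2 ratios was 0.33. Of the 20, 0 met the 2-fold limit, against 17.9% of all genes and 27.7% of those with a mean of 50 to 2000. Most of the 20 had means above 2000. Manba was chosen for unequal levels, so nothing is read from its contrast with them. The largest log2 ratios in size among the 20 were Hexa at 0.88, Hyal1 at 0.74 and Aga at 0.71 in the authors' deposited table, each higher in B. The neighbours of Manba, Ube2d3 and Nfkb1, had log2 ratios of -0.14 and -0.45 by the authors' deposited table.

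Bdh2 encodes a short-chain dehydrogenase that acts on hydroxybutyrate. Its mean normalized count was 238 and it was 2.10-fold lower in B by the authors' deposited table (adjusted p = 1). Ketone body and hydroxybutyrate metabolism had 11 other genes with a mean of at least 50, and the median of the 11 log2 ratios was 0.12. Of these, 0 were higher and 1 was lower in B by 2-fold or more, against 17.9% of all genes either way. That gene was the monocarboxylate transporter gene Slc16a1, at -1.14 in the authors' deposited table. Its relative Slc16a7 lay at -0.87 and Hmgcll1, of ketone body synthesis, at 0.82 in the authors' deposited table. Bdh2 lies between Slc9b2 and Cenpe, a mitotic kinesin gene that was 4.41-fold lower in B by the authors' deposited table (adjusted p = 0.0611).

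**Figure D2:**
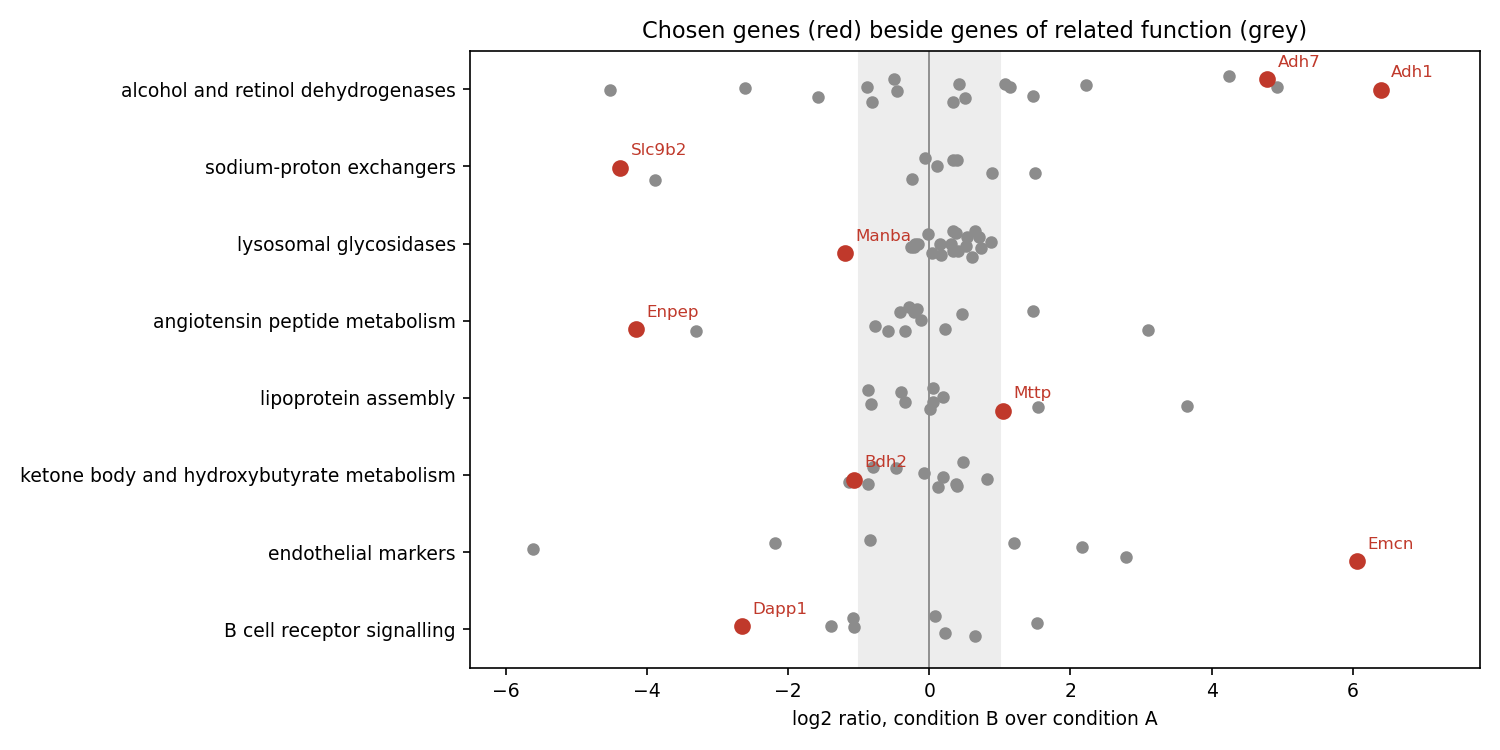
Log2 ratio of B over A (horizontal axis) for genes with a mean normalized count of 50 or more in each function list (vertical axis, points spread for view). Red points are the chosen genes, grey points are the other genes of the list, and the grey band holds log2 ratios under 1 in size. The chosen genes all lie outside the band, since unequal levels chose them. Manba, at -1.19, is the one glycosidase gene there, and Slc9b2 and Enpep each have 1 other gene of their list below -3.

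Levels were compared between genes per length of the longest GENCODE M21 transcript. Manba had the highest mean normalized count per kb, 465, followed by Dapp1 at 225, Adh1 at 217, Enpep at 165 and Mttp at 153. Adh7 had 107 and Bdh2 76.0 per kb, and Emcn and Slc9b2 had 27.3 and 23.8. These are means over A and B, and whether neighbours in this order differ cannot be told without replicates.

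**Figure D3:**
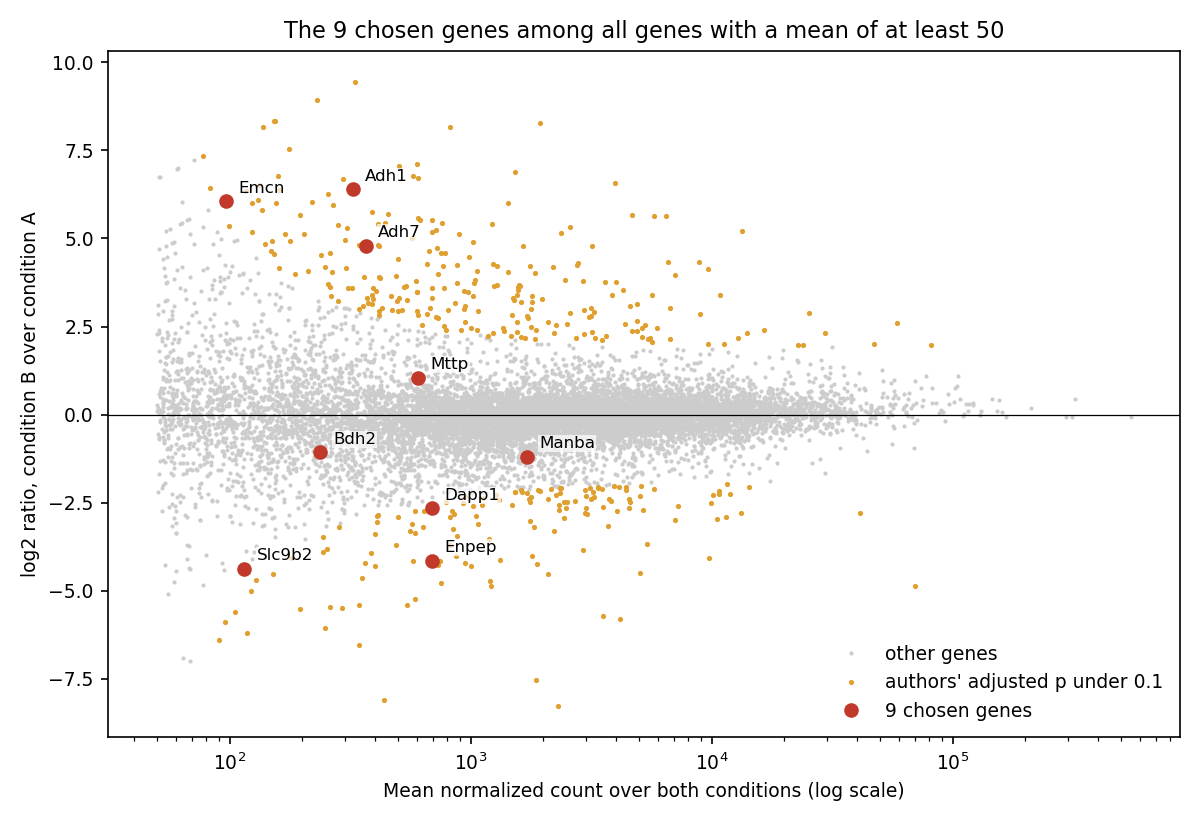
Log2 ratio of B over A (vertical axis) against the mean normalized count (horizontal axis, log scale) for genes with a mean of at least 50 and a finite ratio. Red points are the 9 chosen genes, orange points are other genes with an authors' adjusted p under 0.1 and grey points are the rest. The chosen genes span means of 96.3 to 1708, and Emcn and Slc9b2 have the lowest means of the 9.

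The genes around Tet2 that were not picked by name were then counted. Of the 100 genes of the table within 50 places of Tet2 on either side, 60 had a mean of at least 50 and 20 of these, 33.3%, met the 2-fold limit, 7 higher and 13 lower in B. With the 9 left out, 11 of 51 met it, 21.6%, against 17.9% of all genes. Leaving out genes picked for unequal levels lowers the share, so this count is not independent of the choice. The median log2 ratio of the 51 was -0.12, and that of all genes was -0.04. Of the 51, 3 passed the authors' threshold, Dkk2, Cenpe and Arsj, which is 5.88% against 3.20% of all genes. From Enpep to Adh1, 31 genes other than the 9 and Tet2 had a mean of at least 50. Of these 31, 4 met the 2-fold limit, 12.9% against 17.9% of all genes. The authors' threshold was passed by 2 of them, 6.45% against 3.20% of all genes. The stretch starts and ends at chosen genes that were then left out, so these counts also depend on the choice.

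The 11 genes that met the 2-fold limit without being chosen were 3 higher and 8 lower in B. Dkk2, a secreted modulator of Wnt signalling that lies 9 genes before Tet2, was 95.5-fold higher in B by the authors' deposited table (adjusted p = 2.49e-12). It had a larger ratio than any of the 9. Cxxc4, which encodes a CXXC zinc finger protein and lies next to Tet2, was 4.33-fold higher in B by the authors' deposited table (adjusted p = 1). The BMP receptor gene Bmpr1b was 3.32-fold higher in B by the authors' deposited table (adjusted p = 0.340). Among those lower, Arsj, of the arylsulfatase family, was 4.58-fold lower in B by the authors' deposited table (adjusted p = 0.0903). Cenpe is given above. Alpk1, H2afz, Unc5c, 4930422G04Rik and 5730508B09Rik had log2 ratios between -1.22 and -1.06 in the authors' deposited table.

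The same count around the other TET genes gave 15 of 66 genes, 22.7%, beside Tet1, which was also targeted, and 9 of 53 beside Tet3, which was not targeted. Beside Tet1, 4 were higher and 11 lower in B, and of the 66 genes 0 had an authors' adjusted p under 0.1. Beside Tet3, 4 were higher and 5 lower, and 2 passed. The median log2 ratios were -0.11 beside Tet1 and -0.22 beside Tet3. Tet3 lies on chromosome 6, whose 599 genes at the minimum mean had a median of -0.29. Of those 599, 23.7% met the 2-fold limit. The low median beside Tet3 was thus not confined to its window. The median of chromosome 10, which holds Tet1, was -0.04. With 1 library per genotype the differences between these shares were not tested.

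**Figure D4:**
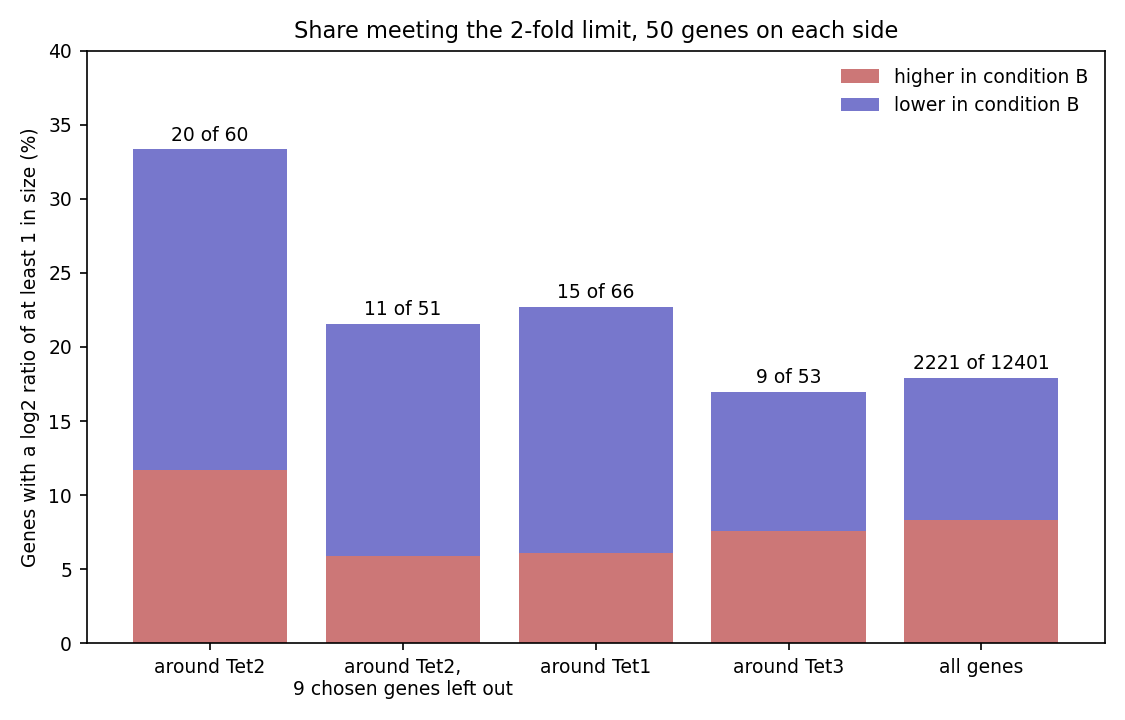
Percentage of genes with a mean normalized count of 50 or more that met the 2-fold limit (vertical axis), within 50 genes on each side of Tet2, Tet1 and Tet3 and over all genes (horizontal axis). Bars are split into genes higher and lower in B, with the counts above them. The share around Tet2 is 33.3% with the 9 chosen genes and 21.6% without them, next to 17.9% over all genes.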

How the data were processed

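RNA was measured in 2 libraries, 1 per genotype. Per the labels' protocols, libraries were made from DNase-treated RNA with a TruSeq RNA v2 kit, although the molecule is labelled as genomic DNA. TopHat2 2.0, the build mm9 and DESeq are named in the submitters' processing notes. The sources used here give neither counter nor annotation. The authors' deposited signal is a gene's count divided by size factors and averaged over conditions A and B. The authors' deposited fold, or ratio, is B over A, and their deposited log2 ratio is its logarithm with no pseudocount. The p-values, raw and adjusted, come from the authors, per the file headers. The 2 columns of values per condition match neither sample's labels. They were read once, to see which way the fold runs, and enter no value given here. Depth per library was therefore not analysed here, and no counting interval is given.

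The 9 genes, the lists and the limits were chosen with earlier results of these data known. Gene order came from RefSeq (GRCm38.p6), matched by symbol or unique synonym for 23180 of 23365 genes. That build differs from the authors', so coordinates are given for RefSeq promoters only. Besides the 9, the TET genes, the direct neighbours of the 9 and neighbours of Tet2 that met the 2-fold limit, up to 4 genes with the largest ratio in size were named from each of 13 lists, with cell type markers. Some genes that this takes are not reported here by name. Counts used pandas 2.3.3 and numpy 2.4.6. The 2-fold limit and trimmed mean were tested on simulated counts with random counting variation only. That cannot show how the limit treats differences between embryos or cultures. Alternatives were minimum means of 10, 200 and none, limits of 1.5-fold and of a log2 ratio of 2, 20 and 100 genes on each side, an adjusted p under 0.05, centring on the median, and a trimmed mean of log2 ratios (30% trimmed by ratio and 5% by abundance, on either end).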

Additional observations from a re-analysis of the deposited data

How the results depend on the processing

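All 9 genes kept their direction and met the 2-fold limit under median centring and the trimmed mean, which moved the median of all genes by less than 0.1. Of the 9, 6 reached a log2 ratio of 2 in size, and 7 had a mean of at least 200. Among the other genes within 50 places of Tet2, the 11 that met the 2-fold limit became 4 at a log2 limit of 2, 18 at 1.5-fold and 22 with no minimum mean. Within 20 genes on each side there were 3, and within 100 there were 28. Their median log2 ratio of -0.12 became -0.11 with no minimum mean, -0.082 with the trimmed mean, -0.087 with median centring, -0.13 within 20 genes and -0.099 within 100. The 3 that passed the authors' threshold became 1 at an adjusted p under 0.05 and 6 within 100 genes. With a minimum mean of 10, chosen after seeing the data, the medians beside Tet1 and Tet3 became -0.048 and -0.18. The windows of other widths and the other limits hold other numbers of genes by construction. No paired analysis was possible because each genotype has 1 library, and no library could be left out for the same reason. Genes of low mean are limited by depth, which was not analysed here.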

Other observations

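Chromosome 3 as a whole can be set beside the other chromosomes. Its genes include the 9, which were picked for unequal levels, so shares are given with and without them. Of its 618 genes at the minimum mean of 50, 143 met the 2-fold limit, 23.1%, and without the 9 it was 134 of 609, 22.0%. Chromosome 6, which holds Tet3, had a higher share, 23.7%, with 46 genes higher and 96 lower in B. Its median log2 ratio was -0.29, and that of chromosome 15 was -0.26. Of the 618, 35 passed the authors' threshold, 5.66%, and without the 9 it was 30 of 609, 4.93%. The share without the 9 is below the 5.51% of chromosome 6 and the 5.11% of chromosome 15. With the 9 counted, 76 genes of chromosome 3 were higher and 67 lower in condition B by 2-fold or more, and the median log2 ratio was -0.04. Chromosome 10, which holds Tet1, had 109 of 608 genes that met the 2-fold limit, 17.9%. These shares are descriptions of 2 libraries and were not tested. Of 12 epithelial markers 3 had a mean of at least 50, and 1 of these 3 met the 2-fold limit, against 17.9% of all genes. That was Krt18, with a mean of 111, at -2.29 (log2 ratio) in the authors' deposited table. Krt19, with a mean of 1146, lay at -0.02 and Esrp2 at -0.17 in the authors' deposited table.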
